A study of Homo sapiens with 12 samples.

Results

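The regions described here lay more than 50 kb from the body of every protein-coding and long non-coding RNA (lncRNA) gene of the RefSeq annotation of GRCh38, and are called far regions. They were taken from chromatin immunoprecipitation sequencing (ChIP-seq) of INTS13, INTS11, HDGF, ZEB1 and ZNF609 in wild-type HEK293T cells, an established human embryonic kidney line, with 2 libraries per antibody. All groups shared this line, a 5-min formaldehyde fixation and 150-bp paired-end reads, and differed in the antibody; 2 input libraries were not analysed here. The study asked whether INTS13 and its partners sit at the same places in the genome. A region of a protein is the merged stretch of overlapping peaks from both of its libraries, and must hold a peak of each. Of 325633 such regions, 22206 were far, and the other 303427 lay in or within 50 kb of genes and are called near. Beyond a peak in each library, the choice used position and set no limit on peak height or width. Distance was taken from the edges of a peak or region, so a wide one can fail where a narrow one passes. Far and near widths and overlaps are therefore not fully independent of the rule.

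Integrator is a complex bound to RNA polymerase II that cleaves nascent RNA. INTS11 is its endonuclease, and INTS13 belongs to a separate module that contacts transcription factors. The complex processes small nuclear RNAs and acts at promoters and enhancers, and some enhancers lie far from any gene. HDGF, a growth factor also found in the nucleus, carries a PWWP domain, a fold that binds chromatin. ZEB1 represses epithelial genes through zinc fingers, and ZNF609 belongs to the zinc finger proteins as well.

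The 10 lists held between 26409 and 416964 peaks on chromosomes 1 to 22 and X. Read depth is unknown, so no counting interval is given for a peak. Nothing in the labels says that the libraries of a protein came from separate cultures, so that p-values measure only the spread between libraries, which may be technical. Tests that change signs over 10 libraries take the 2 libraries of a protein as independent. For overlap with the other replicate they are not, since both values of a protein come from the same pair of lists. With 1 value per protein, such a test cannot reach an exact permutation p below 0.0625. In every list, peaks were crowded on chromosome 13 between 62 and 95 Mb, a stretch poor in genes, and the results are therefore given for chromosome 13, for this stretch and for the other chromosomes. Chromosome 13 and the stretch were picked from these same lists. The p-values that set them against the rest are therefore descriptive and do not test that choice.

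INTS13 had the most far regions and HDGF the fewest where a peak of each library was required. The count was 12570 for INTS13, which was 6.17% of its regions, and 4826 for INTS11, which was 9.12%. HDGF had 1396 (3.16%), ZEB1 had 1874 (12.5%) and ZNF609 had 1540 (15.5%). With 1 library left out, the far peaks of the other stand for the regions, and without replicate 1 and without replicate 2 INTS13 then had 23364 and 27405, INTS11 had 9643 and 14058, HDGF had 3588 and 4667, ZEB1 had 5172 and 5254, and ZNF609 had 3762 and 5454. Median widths were 1014 bp for far and 1178 bp for near INTS13 regions, and 1289.5 bp and 1276 bp for INTS11. Far and near regions had median widths of 1071 and 913 bp for HDGF, 1306 and 1215 bp for ZEB1, and 1280 and 1241 bp for ZNF609. The median distance to the nearest gene lay between 87.4 kb for INTS13 and 99.2 kb for ZEB1. Just inside the limit, at 50 to 60 kb from genes, lay 2343 INTS13, 741 INTS11, 238 HDGF, 262 ZEB1 and 210 ZNF609 regions. Just outside it, at 40 to 50 kb, lay 3382, 1006, 328, 337 and 254 regions of the same proteins in the same order. Where far regions overlapped, they merged into 12849 loci that covered 21.9 Mb.

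Few small RNA genes lay inside far regions, with the exception of transfer RNA (tRNA) genes. Such genes do not count as genes in the 50-kb rule, so they can lie in a far region. INTS13 regions covered 14 of 41 tRNA genes that were far from other genes (34.1%), beside 128 of 402 near ones (31.8%) and 32.3% of all tRNA genes. A cluster on chromosome 7 between 149556711 and 149647026 held 9 of the 14, out of 10 far tRNA genes on that chromosome, and INTS11 regions covered 6 of them. Most of these 9 genes encode cysteine tRNA, for example TRC-GCA15-1, where the INTS13 peaks had folds of 4.07 and 3.07 over the caller's background in replicates 1 and 2. On chromosome 6, 4 of 24 far tRNA genes lay in INTS13 regions, although no replicate 2 peak overlapped these genes themselves, and on chromosome 1 the single far one did.

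MicroRNA genes were rarer inside far regions. INTS13 regions covered 3 of 77 far microRNA genes (3.90%), beside 613 of 1834 near ones (33.4%) and 32.2% of all. No far region of the other 4 proteins held one. The 3 hairpins are shown because they are the annotated microRNA transcripts inside the regions, as RefSeq gives them for GRCh38.p14, with the mature products in capitals.
MIR3141 (chr5:154596012-154596072, minus strand): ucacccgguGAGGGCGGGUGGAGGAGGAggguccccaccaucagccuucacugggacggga
MIR492 (chr12:94834398-94834513, plus strand): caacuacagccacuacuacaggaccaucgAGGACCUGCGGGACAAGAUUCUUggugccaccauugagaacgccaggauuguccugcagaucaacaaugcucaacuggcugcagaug
MIR2114 (chrX:150228004-150228083, plus strand): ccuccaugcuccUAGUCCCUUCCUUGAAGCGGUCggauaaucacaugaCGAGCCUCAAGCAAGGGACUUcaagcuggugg
INTS13 folds at the hairpins were 2.25 and 1.76 at MIR3141, 2.77 and 2.16 at MIR492, and 2.08 and 2.61 at MIR2114 in replicates 1 and 2. The MIR3141 region spans 154595469 to 154596242 on chromosome 5, between HAND1, a transcription factor of heart development, and LARP1, an RNA-binding regulator of translation.

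Far regions were concentrated on chromosome 13, which held the largest share of them for ZNF609, ZEB1 and HDGF. Chromosome 13 held 20.1% of far INTS13 regions, 44.0% of far INTS11, 77.8% of far HDGF, 78.2% of far ZEB1 and 85.1% of far ZNF609 regions. Of near regions it held 3.50% (INTS13), 9.26% (INTS11), 7.76% (HDGF), 29.5% (ZEB1) and 40.3% (ZNF609), so the near share was also largest for ZNF609 and ZEB1. Among a protein's regions on this chromosome, far ones made up 24.6% (HDGF), 27.4% (INTS13), 27.5% (ZEB1), 27.9% (ZNF609) and 32.3% (INTS11). Between 96.4% and 100% of a protein's far regions on this chromosome lay between 62 and 95 Mb. Counted over peaks, chromosome 13 held a larger share of far than of near peaks in 10 of 10 libraries. The mean difference was 33.9 ± 16.02 percentage points (SD, n = 10), with a two-sided exact permutation p of 0.00195, the smallest that sign changes over 10 libraries can give. Since the chromosome was picked after its crowding was seen, this p is no independent support for the concentration.

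Density per megabase of far sequence showed the same concentration. The measure uses callable sequence, that is 100-kb bins with a peak in at least 1 of the 10 lists, of which 344 Mb lay far from genes. Chromosome 13 had 155 INTS13, 130 INTS11, 66.5 HDGF, 89.7 ZEB1 and 80.2 ZNF609 regions per Mb of far callable sequence. The median of the other chromosomes was 21.9, 1.67, 0.395, 0.204 and 0 per Mb for the same proteins. Chromosome 18 came next, with 120 INTS13, 101 INTS11, 20.5 ZEB1 and 16.2 ZNF609 regions per Mb. HDGF was thinner there, at 6.72 per Mb, and its highest density outside chromosome 13 was 6.73 per Mb on chromosome 22. Chromosome X, with 44.8 Mb of far callable sequence, had 2417 INTS13 and 746 INTS11 regions but 1 HDGF region. ZNF609 had no far region on 12 chromosomes, ZEB1 none on 6, HDGF none on 4, INTS11 none on chromosome 11 alone, and INTS13 had some on each.

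**Figure D1:**
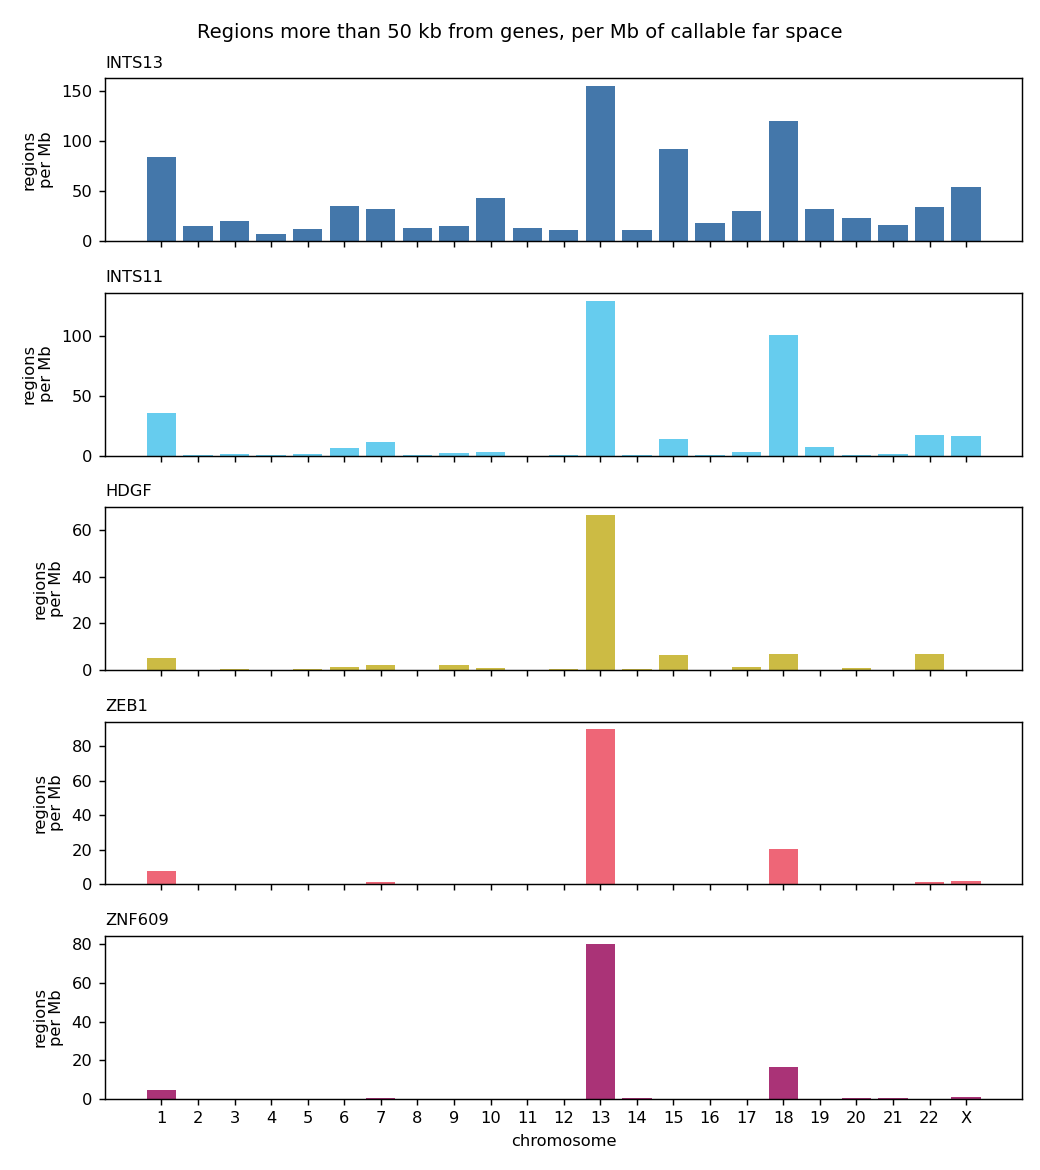
Far regions per Mb of callable sequence more than 50 kb from genes (y axis, regions per Mb, a separate linear scale from 0 for each protein) on each chromosome (x axis). Chromosome 13 has the tallest bar for each of the 5 proteins, from 66.5 per Mb for HDGF to 155 per Mb for INTS13.

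Far loci were unevenly spread over the gene-free intervals between neighbouring genes. Of 2769 intervals with far callable sequence, 1519 (54.9%) held at least 1 far locus. INTS13 was in 1503 intervals, INTS11 in 432, HDGF in 175, ZEB1 in 165 and ZNF609 in 128. The 8 intervals with the most loci held 9.18% of loci in 1.496% of far callable sequence. They held 19.4% of far INTS11, 16.1% of ZEB1, 15.5% of ZNF609, 7.41% of INTS13 and 6.88% of HDGF regions.

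The fullest interval lay on chromosome 13 from 82668869 to 83720130, with 255 loci. Its nearest protein-coding genes are SPRY2, an inhibitor of receptor tyrosine kinase signalling, 2328 kb to the left, and SLITRK1, a neuronal adhesion protein, 157 kb to the right. It held 169 INTS13, 231 INTS11, 78 ZEB1 and 74 ZNF609 regions but 2 HDGF regions. A second interval between the same genes, from 81848839 to 82357037, held 123 loci and no HDGF region. The interval between KLHL1, a brain kelch protein, and DACH1, a transcription factor, held 134 loci, and one between PCDH9, a protocadherin, and KLHL1 held 116. These last intervals did hold HDGF, with 37 and 53 regions. HDGF was therefore scarce in some of the gene-free intervals that INTS11 and ZEB1 filled, and present in others of the same chromosome.

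Chromosome 18 held 3 of the 8 fullest intervals. Of these, 2 lay between LOC105372073 and PIK3C3, the class III phosphoinositide 3-kinase, with 158 and 142 loci. The third, between CDH2, the N-cadherin, and DSC3, a desmosomal cadherin, held 132. The remaining interval, on chromosome X between CT83 and KLHL13, held 120 loci with 109 INTS13 regions, 34 INTS11, 2 ZEB1, 1 ZNF609 and 0 HDGF regions. The longest intervals with no far locus lay between DPP10 and DDX18 on chromosome 2, with 966 kb of far callable sequence, between OTOL1 and SI on chromosome 3, with 733 kb, and between PRIM2 and KHDRBS2 on chromosome 6, with 712 kb. The last one spans the centromere.

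Intervals flanked by genes of neural adhesion held about the same share of far loci as of far sequence, and their share of regions differed by protein and with chromosome 13. The list held 91 such genes (protocadherins, cadherins, SLITRK and related genes), and 337 intervals had one as a nearest protein-coding neighbour, with 20.8% of far callable sequence and 21.5% of far loci. These intervals held 21.8% of far INTS13, 37.8% of INTS11, 54.5% of HDGF, 45.6% of ZEB1 and 46.8% of ZNF609 regions. Without chromosome 13 they had 19.0% of far callable sequence, and 9.75%, 10.9%, 5.81%, 11.8% and 13.1% of the regions of the same proteins in the same order. A list of 126 developmental transcription factors flanked 9.52% of far callable sequence, and its intervals held between 11.7% of INTS13 and 29.6% of ZNF609 regions. Without chromosome 13 these intervals had 9.34% of the sequence and between 2.62% of ZNF609 and 9.28% of INTS13 regions. No test was made of either list.

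The strongest and widest far regions lay on chromosome 13. Per protein, the 2 far regions with the highest peak ranks in both libraries were all on this chromosome. The widest locus ran from 61741992 to 61944469, over 202 kb, between PCDH20, a protocadherin gene, and LOC112267897 and 59.1 kb from the nearest gene. In the far regions there, INTS13 peaks had folds of up to 10.2 and 9.80 in replicates 1 and 2, those of HDGF 7.69 and 8.13, and those of ZNF609 7.86 and 7.67. These folds are the authors' values per peak, relative to each list's own background, and are not compared between lists. INTS11 had 1 region here, and it reached to 42.3 kb from a gene, so it was not far. The wide ZEB1 region ended at the same distance and was not far either, and ZEB1 counts among the 4 proteins of the locus through a region of 1.41 kb at its left edge. Peaks in and around these regions had folds of up to 8.34 and 7.86 for INTS11 and 8.54 and 7.64 for ZEB1.

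Other wide loci carried all 5 proteins. One from 65141321 to 65235227 spans 93.9 kb between LOC647264 and PCDH9, and one from 67487919 to 67523564 spans 35.6 kb between PCDH9 and KLHL1. The locus from 64878745 to 65024684, at 146 kb, was the widest with all 5. Peaks of 10 lists overlapped each of them. Of the 5 loci with all proteins and the highest ranks, 1 lay off chromosome 13, at 80147103 to 80168583 on chromosome 9, between the corepressor genes TLE4 and TLE1 and 113 kb from the nearest gene. INTS13 folds were 6.06 and 5.68 there, and ZNF609 folds were 5.39 and 4.98. The loci farthest from genes lay beside the centromere of chromosome 1, and the farthest, from 125015447 to 125015831, was 3552 kb from its nearest gene and held INTS13 alone, with folds of 1.73 and 1.83.

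Over all deposited peaks, the far share was below the far share of sequence in 9 of 10 libraries, but the call was lost for stronger peaks. Far sequence made up 13.8% of the callable genome. The far share of peaks was 6.57% and 6.83% in INTS13 replicates 1 and 2, 7.20% and 9.08% in INTS11, 3.16% and 3.13% in HDGF, 10.0% and 11.4% in ZEB1, and 11.8% and 14.2% in ZNF609. ZNF609 replicate 2 alone lay above 13.8%, and HDGF libraries lay lowest. The log2 ratio of the 2 shares averaged -0.88 ± 0.75 (SD, n = 10), with a two-sided exact permutation p of 0.00391. It was -0.34 for peaks with -log10 q of at least 5 and -0.35 for up to 10000 of the strongest peaks of each list (exact permutation p of 0.248 and 0.141). In the second set 3 libraries were above 0, ZEB1 replicate 2 and both of ZNF609. Peaks tied at the cut were left out, so the sets called the 10000 strongest or top 10000 held between 7486 and 9986 peaks. Averaged per protein the value was the same, and 5 values cannot reach an exact permutation p below 0.0625. Over all chromosomes the proteins differed: protein identity took up 0.978 of the variance of the log2 ratio, with a one-sided exact permutation p of 0.00106, the smallest that the pairings of 10 libraries can give. Without chromosome 13 the share was 0.992, with an exact permutation p of 0.0582. HDGF alone stood apart there, with a mean log2 ratio of -3.33. The means of INTS13, INTS11, ZEB1 and ZNF609 lay close together, at -1.18, -1.13, -1.21 and -1.06.

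Chromosome 13 was the one chromosome on which each library had a larger far share of peaks than of sequence. The log2 ratio there was 0.41 ± 0.16 (SD, n = 10), positive in 10 of 10 libraries. Over the other chromosomes together it was -1.58 ± 0.93, negative in 10 of 10, with a two-sided exact permutation p of 0.00195. The difference, chromosome 13 minus the others, was 1.99 (two-sided exact permutation p of 0.00195, adjusted over 5 measures 0.00488). Taken singly, chromosome 18 averaged -0.23 with 8 of 10 libraries above 0, chromosome 20 averaged -1.45 with 2 above 0, and chromosome 14 averaged -1.91 with 1 above 0. Those above 0 on chromosomes 20 and 14 were ZNF609 libraries with between 6 and 9 far peaks. ZNF609 replicate 2 had 0 far peaks on chromosomes 16 and 19, so its values there, -5.25 and -2.41, rest on a small added constant. No library was above 0 on any of the remaining chromosomes, whose means lay between -3.37 and -0.73.

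The surplus on chromosome 13 was not seen within its crowded stretch. Within 62 to 95 Mb, 32.04% of callable sequence was far from genes, against 21.0% of the whole chromosome. The far share of peaks inside the stretch lay between 25.4% in HDGF replicate 2 and 32.4% in INTS11 replicate 2. The log2 ratio was -0.12 ± 0.11 (SD, n = 10), negative in 8 of 10 libraries and above 0 by at most 0.018 in the INTS11 libraries, with a two-sided exact permutation p of 0.00781. On the rest of chromosome 13 it was -0.47 ± 1.01, with a two-sided exact permutation p of 0.170, from between 13 and 3691 peaks per library. This rest includes the widest far locus, which lies just below 62 Mb. Neither stretch taken alone had a mean above 0.

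**Figure D2:**
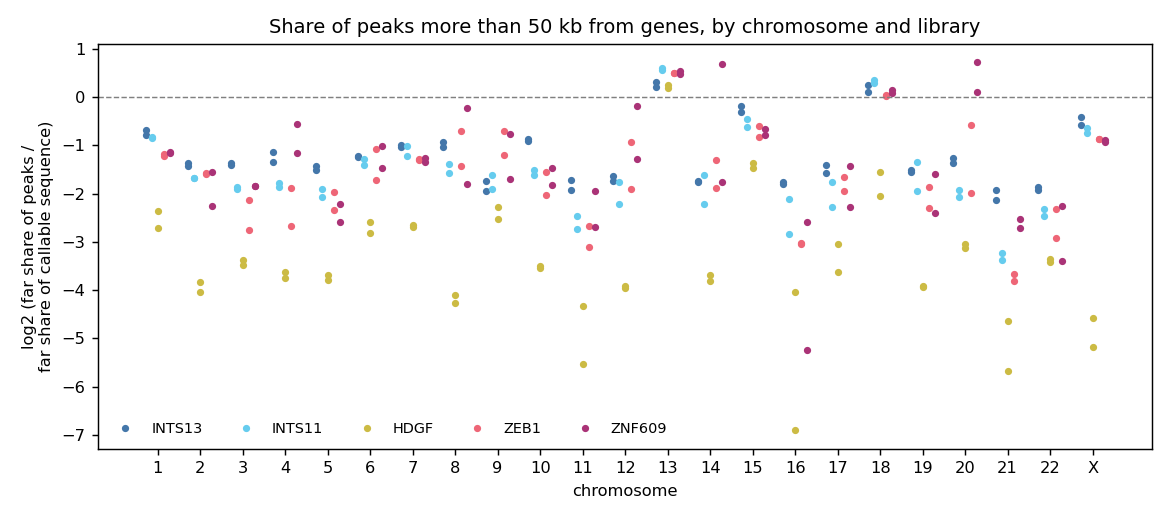
The log2 ratio of the far share of peaks over the far share of callable sequence (y axis) by chromosome (x axis), with 1 point per library and both libraries of a protein in one colour. All 10 points of chromosome 13 lie above the dashed line at 0, and 8 of 10 do on chromosome 18.

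Outside chromosome 13, density at 50 kb and more from genes was below that inside genes for all 5 proteins, and lowest for HDGF. Relative to the mean of a list, INTS13 density there was 1.10 ± 0.00261 inside genes, 1.28 ± 0.0215 within 10 kb of them, 0.571 ± 0.00209 at 50 to 100 kb and 0.287 ± 0.0282 at 200 to 500 kb (SD, n = 2). INTS11, ZEB1 and ZNF609 were likewise denser within 10 kb than inside genes. HDGF density was 1.36 ± 0.00117 inside genes, 1.04 ± 0.0420 within 10 kb, 0.155 ± 0.0180 at 50 to 100 kb and 0.0349 ± 0.00607 at 200 to 500 kb. ZEB1 density was 0.331 ± 0.0239 and ZNF609 density 0.375 ± 0.0316 at 200 to 500 kb. On the whole of chromosome 13 the order was turned round, with ZEB1 at 0.820 ± 0.00436 inside genes and 1.498 ± 0.0397 at 200 to 500 kb. Within the stretch the differences were smaller, with ZEB1 at 1.04 ± 0.00658 inside genes and 0.863 ± 0.0230 at 200 to 500 kb, and HDGF at 1.12 ± 0.0436 and 0.837 ± 0.0102, with its lowest density, 0.759 ± 0.0940, at 100 to 200 kb. INTS11 was nearly level there, at 0.996 ± 0.000959 and 0.967 ± 0.0359. Distances beyond 500 kb rest on 0.0894 Mb in the stretch.

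**Figure D3:**
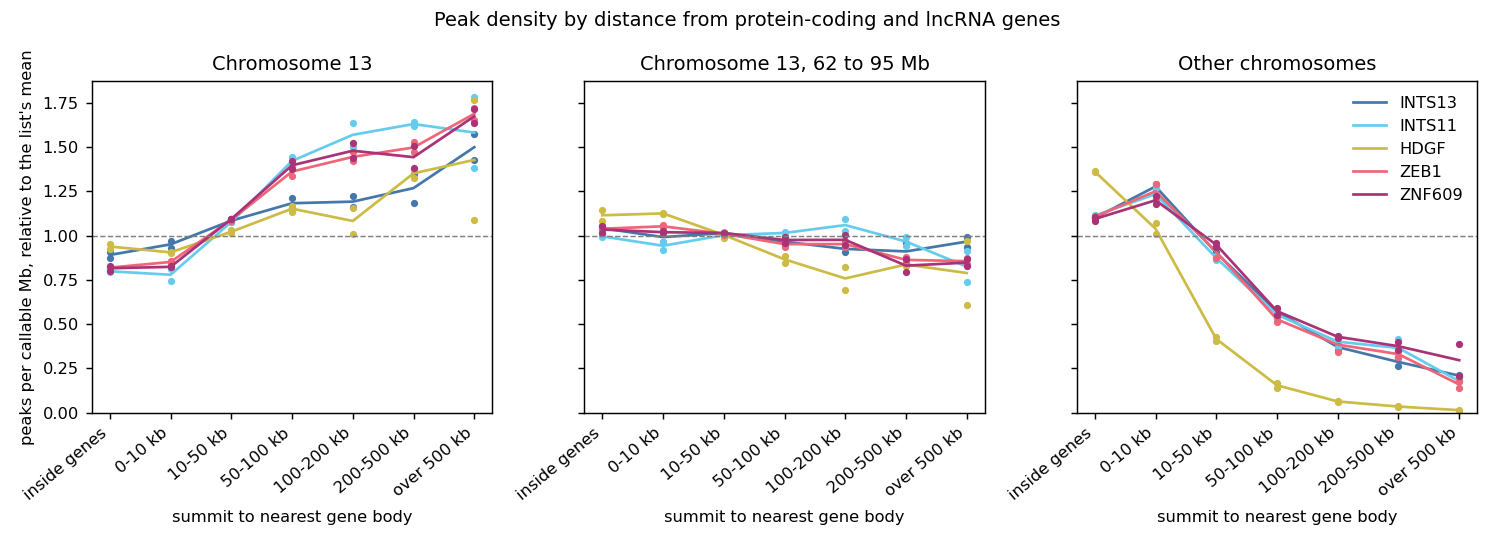
Peaks per callable Mb relative to the mean of each list (y axis, linear from 0) by distance of the peak summit from the nearest gene body (x axis), for chromosome 13, its stretch from 62 to 95 Mb and the other chromosomes. Lines are means of 2 libraries and points are libraries. At 200 to 500 kb all 5 curves are above 1 on the whole of chromosome 13 and below 1 in the stretch and elsewhere, where HDGF is at 0.0349. Elsewhere 4 of the 5 are higher at 0 to 10 kb than inside genes.

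Over all deposited peaks of all chromosomes, far minus near differences in width and overlap did not pass the test, and some did under other settings. The mean log2 ratio of the median widths was 0.040 ± 0.13, and peaks overlapped by the other replicate differed by 3.998 ± 7.94 percentage points (SD, n = 10; two-sided exact permutation p of 0.340 and 0.141, each adjusted to 0.453 over 4 measures). The second difference was 13.05 points for peaks with -log10 q of at least 5 and 11.99 for the 10000 strongest (adjusted exact permutation p of 0.0312 and 0.0156). Peaks overlapped by a region of another protein differed by -1.44 ± 9.47 percentage points (exact permutation p of 0.629, adjusted 0.629), a mean over HDGF libraries at 12.03 and 14.6 and INTS11 libraries at -10.7 and -13.1. Outside dense 1-Mb bins, those with more than 2 times a list's mean count, it was -10.3 points (adjusted exact permutation p of 0.00781).

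Ranks by -log10 p allowed little testing, because deposited values repeat and median ranks were often tied. Far minus near was 2.71 ± 7.28 percentile points, with 4 of 10 libraries not tied, 3 above 0 and 1 below, so that the exact permutation p, 0.250, could not go below 0.125. At the q limit it was 8.84 and for the 10000 strongest peaks 11.6 (adjusted exact permutation p of 0.0312 and 0.0156). Outside chromosome 13 it was -4.32 points with 3 libraries not tied, and between 62 and 95 Mb -4.31 points with 5 not tied, all below 0. The exact permutation p values, 0.250 and 0.0625, are the smallest that those libraries allow.

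Within the crowded stretch and outside chromosome 13, however, far peaks were narrower and less often shared than near ones. Outside chromosome 13 the log2 width ratio was -0.14 ± 0.067. Median peak widths were, for example, 347 bp far and 396 bp near in HDGF replicate 2, and 567 bp and 657 bp in INTS13 replicate 2. Between 62 and 95 Mb it was -0.17 ± 0.062, with for example 895 bp far and 1081 bp near in INTS11 replicate 1. Each was below 0 in 10 of 10 libraries, with a two-sided exact permutation p of 0.00195, adjusted over 4 measures to 0.00260. Outside dense 1-Mb bins the log2 width ratio was -0.055 ± 0.084 (adjusted exact permutation p of 0.172).

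The other replicate overlapped fewer far than near peaks in both sets. Outside chromosome 13 the mean difference was -10.2 ± 4.94 percentage points, with 52.9% of far and 67.2% of near peaks in INTS13 replicate 2 and 10.4% and 15.6% in ZNF609 replicate 1. Within the stretch it was -5.88 ± 2.11 points, with 82.4% of far and 86.2% of near peaks in INTS13 replicate 2 and 51.1% and 58.1% in ZNF609 replicate 1. Overlap with another protein differed by -14.3 ± 6.70 points outside chromosome 13 and by -4.87 ± 2.12 points in the stretch. All 4 differences were below 0 in 10 of 10 libraries and had an adjusted exact permutation p of 0.00260. For overlap with the other replicate, both libraries of a protein share 1 pair of lists, so this p overstates the support. With 1 value per protein, the exact permutation p could not go below 0.0625. Outside dense 1-Mb bins, overlap with the other replicate differed by -2.73 ± 5.65 points (adjusted exact permutation p of 0.221). There INTS11 replicate 1 and both libraries of ZEB1 and ZNF609 lay above 0, and the others below. The gap in overlap with another protein was smaller in the stretch than outside chromosome 13 in 10 of 10 libraries, by 9.47 points (two-sided exact permutation p of 0.00195, adjusted over 5 measures 0.00488). These gaps start from unlike levels. Mean near overlap lay between 85.0% (INTS11) and 95.4% (INTS13) in the stretch, and between 17.7% (INTS13) and 82.4% (ZEB1) outside chromosome 13. Far peaks were also narrower in both sets, and the part of width in these overlaps was not tested.

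**Figure D4:**
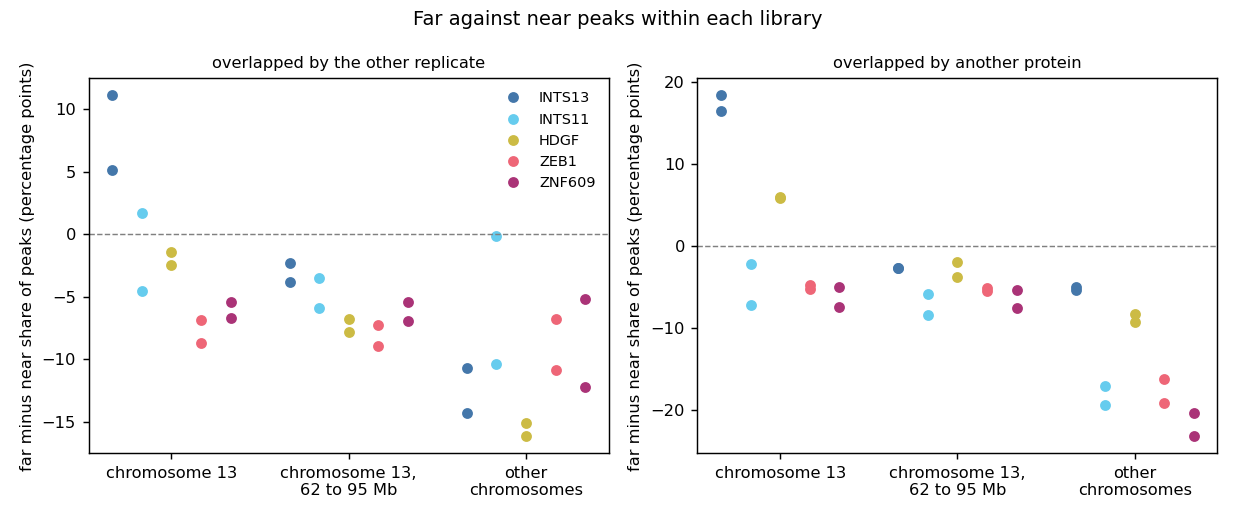
Far minus near share of peaks (y axes, percentage points) overlapped by the other replicate of the protein (left) and by a region of another protein (right), with 1 point per library. Points of the stretch from 62 to 95 Mb and of the other chromosomes lie below 0 for all 10 libraries, whereas on the whole of chromosome 13 the INTS13 libraries lie above 0 in both panels.

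Most far regions of the partners overlapped an INTS13 region, at or below the share over all their regions except for HDGF. INTS13 covered 74.7% of far INTS11 regions, 85.7% of near ones and 84.7% of all. For ZEB1 the shares were 82.6% far, 91.8% near and 90.7% of all, and for ZNF609 77.3%, 88.1% and 86.4%. For HDGF they were 83.4% far, 76.4% near and 76.6% of all. In the crowded stretch INTS13 covered 86.4% of far and 87.9% of near HDGF regions, and outside chromosome 13 it covered 72.6% and 75.6%. The higher HDGF share was therefore not seen within either set. Between single libraries an INTS13 peak overlapped 61.8% ± 1.76 of far and 73.4% ± 1.59 of near INTS11 peaks, 64.7% ± 2.80 and 62.5% ± 2.24 of HDGF peaks, 67.8% ± 2.76 and 78.8% ± 3.32 of ZEB1 peaks, and 62.9% ± 2.42 and 74.3% ± 1.89 of ZNF609 peaks (SD, n = 4 library pairs).

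The other way round, INTS11 covered a larger share of far than of near INTS13 regions when all chromosomes were pooled, but not within the crowded stretch. It covered 33.6% of far INTS13 regions, 20.2% of near ones and 21.1% of all. Outside chromosome 13 the shares were 19.3% and 18.0%, and between 62 and 95 Mb they were 92.7% and 95.1%. ZEB1 covered 15.1% of far and 5.40% of near INTS13 regions, beside 6.0% of all, and ZNF609 covered 12.98% and 3.83%, beside 4.39% of all. Outside chromosome 13 these shares were 3.05% far and 3.37% near for ZEB1, and 1.71% and 1.94% for ZNF609.

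HDGF overlapped a smaller share of far than of near regions of INTS13, ZEB1 and ZNF609. It covered 8.70% of far INTS13 regions, 13.4% of near ones and 13.1% of all, and outside chromosome 13 it covered 1.71% of far and 12.3% of near ones. It covered 27.0% of far ZEB1 regions, beside 50% of near ones and 47.1% of all, and 26.8% of far ZNF609 regions, beside 50.4% of near ones and 46.7% of all. In the crowded stretch the shares were 31.3% far and 49.3% near for ZEB1 and 29.3% and 49.4% for ZNF609, so that the gap was present there too. In contrast, most of the far HDGF regions overlapped another protein. INTS11 covered 86.7% of them, 42.9% of near HDGF regions and 44.3% of all. Between 62 and 95 Mb the 2 shares were 96.3% far and 96.4% near, and outside chromosome 13 they were 54.5% and 38.7%.

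The far regions that ZEB1 and ZNF609 shared lay mostly on chromosome 13. ZNF609 covered 50.3% of far and 37.8% of near ZEB1 regions, beside 39.4% of all, but in the crowded stretch the shares were 59.7% and 67.0%. ZEB1 covered 57.5% of far and 57.8% of near ZNF609 regions, beside 57.8% of all, and in the stretch 63.0% and 73.5%. Outside chromosome 13, ZNF609 covered 16.4% of far and 25.6% of near ZEB1 regions, and ZEB1 covered 26.1% of far and 47.2% of near ZNF609 regions. Far regions overlapped by at least 1 other protein made up 35.2% of INTS13 (27.4% over all its regions), 80.6% of INTS11 (87.7% over all), 93.0% of HDGF (79.3% over all), 94.7% of ZEB1 (96.9% over all) and 91.8% of ZNF609 regions (95.6% over all). The higher far shares of INTS13 and HDGF were not seen within either set. Outside chromosome 13 the shares were 20.5% far and 24.8% near for INTS13, and 75.5% and 77.5% for HDGF. In the stretch they were 95.6% and 97.3% for INTS13, and 98.0% and 98.3% for HDGF.

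Most far loci held 1 protein, in about the share seen near genes. Of the 12849 far loci, 8170 (63.6%) held INTS13 only, 1679 (13.1%) held INTS13 and INTS11, and 980 (7.63%) INTS11 only. HDGF stood alone at 115 loci, ZEB1 at 112 and ZNF609 at 133. All 5 proteins met at 221 loci, with a median width of 9713 bp, of which 200 lay on chromosome 13, 10 on chromosome 1, 9 on chromosome 18 and 1 each on chromosomes 9 and 14. Loci of 1 protein had a median width of 893 bp. To set far against near, loci were merged from all regions, and 74.4% of far and 79.0% of near loci then held 1 protein. Between 62 and 95 Mb, 70.0% of far and 76.4% of near loci then held at least 2 proteins, and 8.89% and 18.1% held all 5. On the other chromosomes the shares with at least 2 were 17.1% far and 20.1% near, and those with all 5 were 0.180% and 0.601%.

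**Figure D5:**
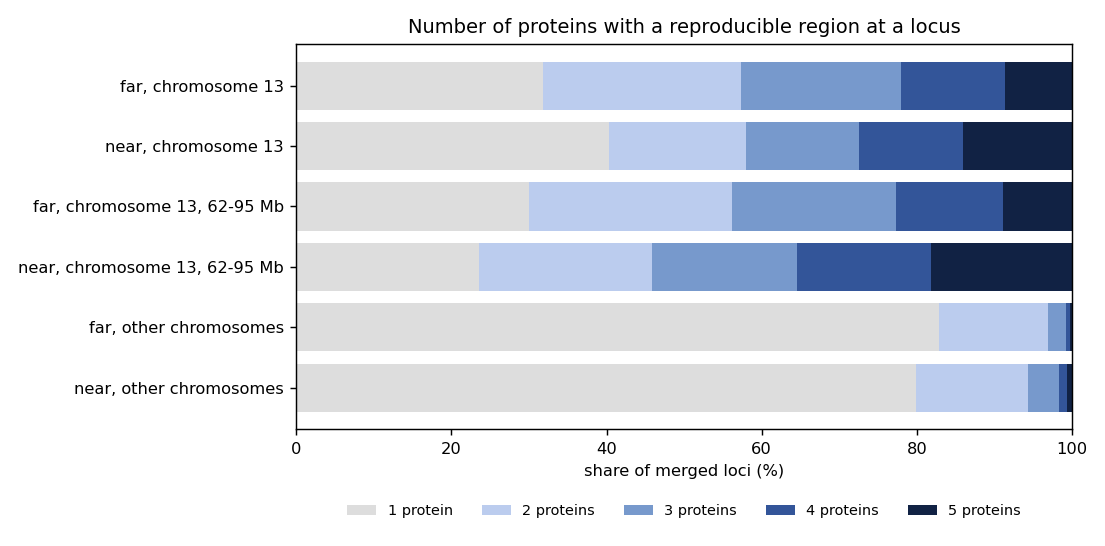
Share of merged loci (x axis, percent) that hold a region of 1 to 5 proteins, for far and near loci of chromosome 13, of its stretch from 62 to 95 Mb and of the other chromosomes. On the other chromosomes most bars are taken by loci of 1 protein, and in the stretch far loci hold all 5 proteins in 8.89% and near loci in 18.1%.

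In their far peaks, the replicates of a protein were more alike than libraries of different proteins. The Jaccard index, the shared over the joint length of 2 sets of far peaks, was 0.327 ± 0.0224 within proteins (SD, n = 5 pairs) and 0.204 ± 0.0793 between them (n = 40). The difference was 0.122, with a one-sided exact permutation p of 0.00212 over 945 pairings. For near peaks the index was 0.260 ± 0.0824 within and 0.135 ± 0.0598 between proteins, a difference of 0.125 (exact permutation p of 0.00106). The gap for far peaks was 0.110 between 62 and 95 Mb and 0.092 outside chromosome 13 (exact permutation p of 0.00317 and 0.00212). ZEB1 and ZNF609 were an exception to the average. Set against each other in 4 pairs they averaged 0.319 (lowest 0.302, highest 0.331), while the index was 0.309 between ZEB1 replicates and 0.326 between ZNF609 replicates. INTS13 and HDGF had the lowest mean, 0.0809 over 4 pairs, and lists of such unequal length cannot reach a high index.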

How the data were processed

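Peak lists of 10 ChIP-seq libraries were analysed, 1 deposited list per library. Per the submitters' processing notes, the tools were FastQC, Trimmomatic, Bowtie, Picard and, for peaks, MACS2, while the control, thresholds and versions are not stated. The peak fold is the authors' deposited ratio over the caller's background, the p-value and q-value of a peak are the authors' deposited -log10 values, and the deposited score was not interpreted. Contig names are those of GRCh38, so this build was inferred, and coordinates count from 1. The 321 peaks on alternate contigs were left out.

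Distances were measured from peak or region edges to gene bodies of 19974 protein-coding and 18177 lncRNA genes (RefSeq, GRCh38.p14). Densities by distance were measured from the peak summit instead. Overlap means 1 bp or more. Exact permutation tests changed signs over 10 libraries or divided them into pairs (945 ways), with Benjamini-Hochberg adjustment where stated, and were tested on simulated data. Named members were the 2 per protein with the highest mean within-list percentile of -log10 p. Named intervals were the 8 with the most loci and the 3 longest with none. Named loci were the 5 with the most proteins (ties by rank), the 5 widest and the 3 farthest. The named tRNA gene and the microRNA genes were chosen after their values were seen. The members, gene lists and the stretch from 62 to 95 Mb were chosen with earlier results of these data known. Region sequences and the planned motif count were not run. Python 3.11.15, numpy 2.4.6 and pandas 2.3.3 were used.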

Additional observations from a re-analysis of the deposited data

Results flagged for a closer look

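Several far-minus-near measures differed between proteins or between chromosome 13 and the other chromosomes. The log2 width of far over near peaks differed between proteins (exact permutation p of 0.00741, adjusted over 4 measures 0.0148), with INTS13 libraries at -0.21 and -0.16 and those of ZEB1 and ZNF609 between 0.13 and 0.16. The share of peaks overlapped by another protein, far minus near, also differed between proteins (adjusted exact permutation p of 0.00847), with HDGF libraries at 12.03 and 14.6 percentage points and INTS11 libraries at -10.7 and -13.1. These opposite signs hold for all chromosomes pooled. Outside chromosome 13 mean log2 widths were -0.23 for INTS13, -0.10 for ZEB1 and -0.086 for ZNF609, and between 62 and 95 Mb -0.18, -0.12 and -0.11. Mean overlap differences were -8.76 points for HDGF and -18.3 for INTS11 outside chromosome 13, and -2.87 and -7.11 between 62 and 95 Mb.

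Chromosome 13 minus the other chromosomes gave 1.99 for the log2 far share, 15.8 percentage points for overlap with another protein (10 of 10 libraries) and 8.38 points for overlap with the other replicate (8 of 10 libraries; adjusted exact permutation p of 0.00488, 0.00488 and 0.0195). With the stretch from 62 to 95 Mb in place of the whole chromosome, the differences were 1.46, 9.47 and 4.32 (7 of 10 libraries for the last), with adjusted exact permutation p of 0.00488, 0.00488 and 0.0553.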

How the results depend on the processing

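Settings on chromosome 13 were added after seeing the data, and dense bins are 1-Mb bins with a median over lists of more than 2 times a list's mean count. Far regions numbered 22206, and 40281 beyond 25 kb, 9899 beyond 100 kb, 61810 with protein-coding genes only, 13506 with all annotated genes, 2963 for peaks with -log10 q of at least 5, 7820 outside dense bins, 13696 without chromosome 13, and 24398 to 37041 without 1 library, the highest without INTS13 replicate 2. INTS13 covered 77.9% of far partner regions, and 80.3% beyond 25 kb, 75.4% beyond 100 kb, 80.7% with protein-coding genes only, 85.7% at the q limit, 60.6% outside dense bins, and 61.3% to 84.1% without 1 library. The mean log2 far share was -0.34 at the q limit and -0.35 for the top 10000 peaks, with exact permutation p of 0.248 and 0.141, 0.41 on chromosome 13, and -0.88 with 1 value per protein (exact permutation p of 0.0625). The share of its variance between proteins without chromosome 13 was 0.992 (exact permutation p of 0.0582).

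Signs of the far-minus-near means turned with the setting. Rank was -0.79 beyond 25 kb, -1.15 outside dense bins, -4.32 without chromosome 13, -0.65 on it and -4.31 in its stretch from 62 to 95 Mb, but 8.84 at the q limit and 11.6 for the top 10000 peaks (adjusted exact permutation p of 0.0312 and 0.0156). The log2 width was -0.055 outside dense bins, -0.14 without chromosome 13, -0.077 on it and -0.17 in its stretch. Overlap with the other replicate was -2.73, -10.2, -1.82 and -5.88 points in the same 4 settings, 13.05 at the q limit and 11.99 for the top 10000 peaks (adjusted exact permutation p of 0.0312 and 0.0156). Overlap with another protein was -10.3, -14.3, 1.49 and -4.87 points in the 4 settings, 7.97 at the q limit and 13.5 for the top 10000 peaks. It was -4.88 to 0.58 without 1 library, with 0.58 without INTS11 replicate 1 and 0.21 without ZNF609 replicate 2. The cause of these turns was not tested.

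The replicate numbers are only labels that nothing says pair the samples. With the replicate block the variance share was 0.992 and the similarity gap 0.122, each at 0.00833 by an exact permutation test, which 120 orders cannot undercut. The similarity gap kept its side of the threshold in all 22 alternatives. Read depth is unknown, so no limit that depends on it is given.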
